A study of Mus musculus with 2 samples.

Results

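The epidermal growth factor (EGF) family ligands Egf, Tgfa, Areg, Ereg, Hbegf, Btc and Epgn and the receptors Egfr, Erbb2 and Erbb3 were examined in mouse back skin. They were chosen by name: every probe whose gene name in the array files equals 1 of these 10 symbols was taken, which gave 23 probes in 68 spots, of 41165 probes for 27576 genes. All 10 genes had at least 1 probe measured on both arrays, that is with at least a share of 0.5 of its spots well above background, and 17 of the 23 probes met that condition. Another probe, of Ereg, met it on the FGF18 array alone, and 5 probes (1 each of Tgfa, Btc and Egfr and 2 of Erbb3) met it on neither.

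The study asked which genes respond to fibroblast growth factor 18 (FGF18), a secreted factor made in the hair follicle, when it is given locally to follicles that are growing (anagen). Male C3H/HeN mice, 61 days old, had been depilated on the back 5 days earlier and received a subcutaneous injection of 1 µg FGF18 protein, or of phosphate-buffered saline (PBS) as the control, on day 4, 24 h before full-thickness skin was taken. Depilation, strain, sex and age were thus shared by both groups, and the labels of the PBS sample disagree, its title naming telogen (follicle rest) and its other fields anagen. Per the design text the poly(A) RNA of a group was combined, and 1 single-colour Agilent array was run per group, so the spread between mice was not measured, no difference below has a replicate check and no p-value is given. The labels name 3 mice without a number per group.

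Ligands of this family are made as membrane-anchored precursors, cut free by ADAM proteases, and bind ErbB receptors, which pair up and signal through the RAS-ERK and PI3 kinase pathways. In skin the receptor EGFR, named Egfr in the mouse, keeps basal keratinocytes and the outer root sheath proliferating, and mice with less TGF-alpha or EGFR activity have wavy hair. ERBB2 has no known ligand of its own, ERBB3 has little kinase activity and signals through its partners, and EGF given to newborn mice delays follicle growth.

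The ligand values, each from 1 measured probe, differed from each other. The receptor values, which are means over 2 to 5 measured probes, hardly differed between the arrays. Egf was 1.43-fold higher on the FGF18 array, whereas Ereg was 2.03-fold, Btc 1.84-fold, Tgfa 1.40-fold and Areg 1.37-fold lower, and Hbegf and Epgn were within 1.10-fold. Egfr, Erbb2 and Erbb3 were at 1.10-, 1.01- and 1.11-fold. These folds come from log2 ratios, FGF18 minus PBS, of the processed signal after each array was scaled to its own 75th percentile (signals of 1020 and 899). Past a 2-fold threshold, 0 of the 10 genes lay on the higher side and 1, Ereg, on the lower side, where 1.54% of all 16610 genes measured on both arrays lay on the higher and 0.987% on the lower side. Past 1.5-fold, 0 members were on the higher and 2, Ereg and Btc, on the lower side (3.79% and 4.82% of all genes), and past 3-fold 0 members on either (0.704% and 0.259%). The Ereg call did not hold under the other scalings: the log2 ratio of -1.02 became -0.92 with median scaling, -0.84 without scaling and -0.55 with another background correction. Scaling to spike-in transcripts, which moved every gene up by 0.81, left Btc at -0.07 and Ereg at -0.22 and turned Tgfa to 0.32 and Areg to 0.35. It put Egf at 1.33, so that the counts past 2-fold became 1 higher and 0 lower, and the receptors at 0.65 to 0.83. The median over the 7 ligands was -0.46 on the log2 scale (range -1.02 to 0.52), over the 3 receptors -0.14 (range -0.15 to 0.02), and over all genes -0.07, with an SD of 0.40. The ranges of ligands and receptors are not like for like, since averaging over probes narrows a range. Single measured receptor probes ran from -0.35 to 0.14. In bulk skin, fewer cells that make a transcript and less transcript per cell cannot be told apart.

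The starts of the 4 ligand genes that differed and have an entry in the RefSeq promoter table (build GRCm38.p6) are shown so that the regions upstream of the higher and the lower ligands can be read side by side. Of the 10 members, 7 had a window, 8 windows in all, each from 250 bases before to 50 bases after an annotated start. Egf had a further window, at chr3:129725037-129725336, and that shown is at its outermost start. Which start is used in skin was not measured. Ereg, Hbegf and Erbb3 had no window. Capitals mark matches, on either strand, to 5 motifs. The cAMP response element was searched as TGACGTCA and the site of the AP-1 transcription factors, which EGFR signalling activates, as TGACTCA. The TATA box, the element that positions the start of transcription in some promoters, was searched as TATAAA. The GC box, which is bound by SP1 and related zinc finger proteins, was searched as GGGCGG, and the core of the interferon-stimulated response element was searched too. No 2 of the matches shown overlap. The window of Egf lies on the minus strand at chr3:129755273-129755572, that of Btc on the minus strand at chr5:91402945-91403244, that of Areg on the plus strand at chr5:91139349-91139648 and that of Tgfa on the plus strand at chr6:86194972-86195271.
Egf: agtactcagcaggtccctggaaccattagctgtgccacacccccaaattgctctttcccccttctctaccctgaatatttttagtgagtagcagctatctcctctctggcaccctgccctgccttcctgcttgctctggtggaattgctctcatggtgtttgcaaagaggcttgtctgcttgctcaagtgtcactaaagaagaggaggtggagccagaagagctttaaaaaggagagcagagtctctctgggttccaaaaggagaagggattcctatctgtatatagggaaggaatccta
Btc: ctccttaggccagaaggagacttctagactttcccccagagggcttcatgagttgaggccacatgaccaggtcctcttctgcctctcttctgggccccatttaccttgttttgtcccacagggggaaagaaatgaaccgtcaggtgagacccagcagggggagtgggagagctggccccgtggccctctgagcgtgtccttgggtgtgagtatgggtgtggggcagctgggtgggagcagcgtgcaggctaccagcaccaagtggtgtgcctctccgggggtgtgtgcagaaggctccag
Areg: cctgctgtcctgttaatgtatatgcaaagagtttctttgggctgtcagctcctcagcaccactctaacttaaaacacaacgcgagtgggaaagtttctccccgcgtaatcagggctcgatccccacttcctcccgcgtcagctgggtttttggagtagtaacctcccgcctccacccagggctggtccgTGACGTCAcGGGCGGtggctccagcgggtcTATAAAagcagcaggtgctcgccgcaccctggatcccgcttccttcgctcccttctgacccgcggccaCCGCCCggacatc
Tgfa: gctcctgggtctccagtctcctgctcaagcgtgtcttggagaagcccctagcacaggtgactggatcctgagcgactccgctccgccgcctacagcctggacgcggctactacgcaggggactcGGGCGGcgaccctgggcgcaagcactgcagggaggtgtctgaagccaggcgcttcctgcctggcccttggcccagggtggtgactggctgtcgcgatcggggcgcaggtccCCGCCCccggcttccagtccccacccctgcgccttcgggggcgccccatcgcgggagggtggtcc

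The window of Areg held 1 cAMP response element, beginning 61 bases before the start, 1 TATA box at 31 bases before it and 2 GC boxes. The window of Tgfa held 2 GC boxes, at 126 and 15 bases before the start, and the windows of Egf and Btc held 0 of the 5 motifs. Of all 32851 windows in the table, 1.79% held the cAMP response element, 5.20% the AP-1 motif, 13.6% the TATA box, 35.7% the GC box and 3.44% the core of the interferon-stimulated response element. The arrays did not measure binding at these sequences.

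**Figure D1:**
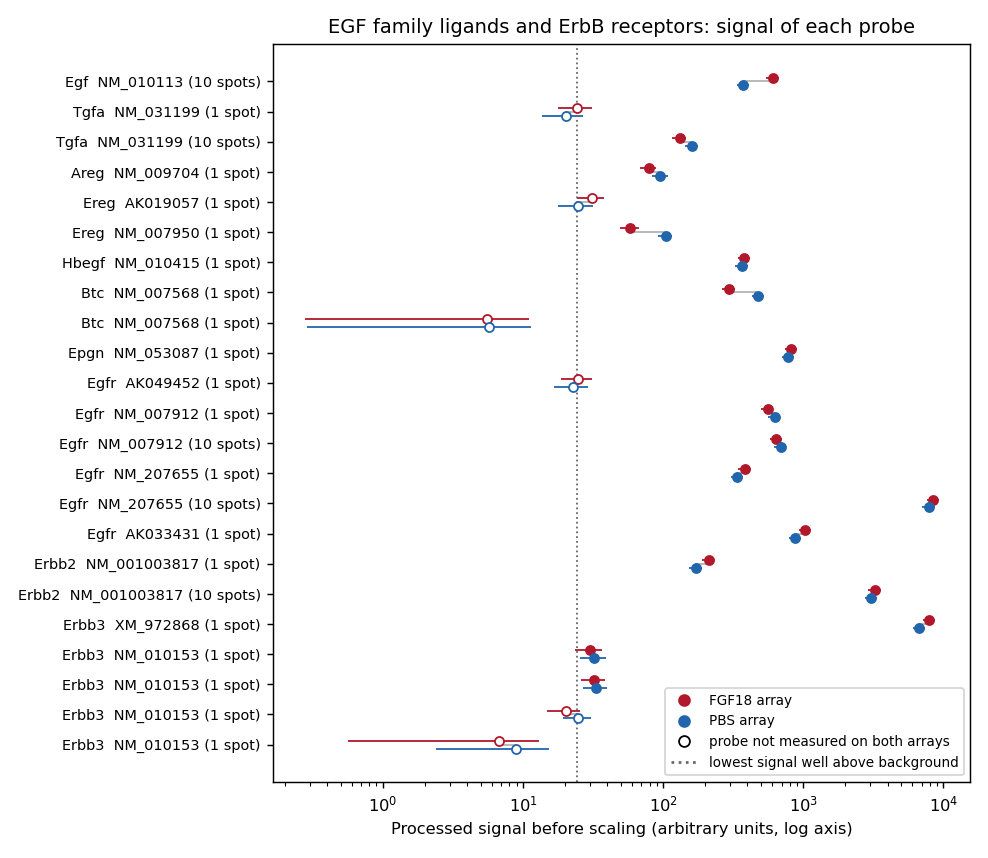
Processed signal of each of the 23 member probes on the FGF18 array (red) and the PBS array (blue), before scaling, on a log axis in arbitrary units; bars are the scanner's own error (1 SD), open points mark probes not measured on both arrays and the dotted line is the lowest signal well above background. The red point of Egf lies right of the blue one, those of Btc and of the NM_007950 probe of Ereg lie left of it, and the receptor pairs nearly coincide.

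Egf, the founding ligand of EGFR, was measured by 1 probe (NM_010113, chr3:129669930-129669989, minus strand; the files name no genome build for probe positions). The probe was printed as 10 spots, whose signals had a lowest value of 540, a median of 608 and a highest of 657 with FGF18, and 340, 374 and 400 with PBS. The spots of the arrays did not overlap, and the FGF18 spot was the brighter in 10 of 10 pairs. The scaled log2 ratio was 0.52 with an SD of 0.0429 over the 10 spots, which is technical error within an array pair only. The error that the scanner software reports for the signals gave 0.21 for the ratio. With the signal left unscaled, Egf was 1.63-fold higher. Under the other processing settings its log2 ratio lay between 0.44 and 0.70, above 0 in 13 of 13, and at 1.33 with spike-in scaling. Several of the 13 could not move it. With 1 probe, filters and probe summaries return the same 0.52, as does the deposited value table.

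Tgfa encodes TGF-alpha, an EGFR ligand of keratinocytes and the gene of the waved-1 mouse. Its 10-spot probe (NM_031199, chr6:86240478-86240537, plus strand) had spot signals from 119 to 144 with a median of 134 with FGF18, and from 143 to 199 with a median of 161 with PBS. The ranges met only at their ends, and the FGF18 spot was the brighter in 0 of 10 pairs. The log2 ratio was -0.48 with an SD of 0.0988 over spots and a scanner error of 0.22. A second Tgfa probe 2.6 kb before it was not well above background on either array (24.3 and 20.3).

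**Figure D2:**
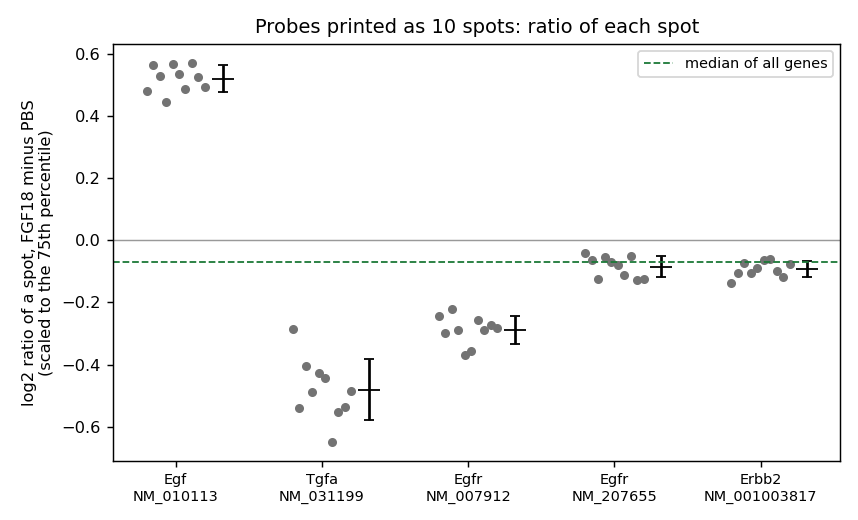
Scaled log2 ratio, FGF18 minus PBS, of each spot (grey points) of the 5 member probes that were printed as 10 spots, with mean and SD beside them and the median of all genes as a dashed line. All 10 Egf spots lie between 0.44 and 0.57 and the Tgfa spots between -0.65 and -0.29. The spots of the Egfr probes, which are listed for different transcript variants, do not overlap.

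Ereg (epiregulin) and Btc (betacellulin) are ligands that bind ERBB4 as well as EGFR. The NM_007950 probe of Ereg (chr5:92167833-92167894, plus strand) had a signal of 58.1 ± 9.15 (scanner error, 1 spot) with FGF18 and 104 ± 12.6 with PBS. Its log2 ratio of -1.02 ± 0.29 lay below the central 95% of dim probes, the lowest of 3 signal classes (-0.96 to 0.84). Among probes of closely matched signal, drawn as narrower bands in the plot of ratio against signal, it lay inside the central 95%. Both signals were low, the lowest signal well above background being 23.3 and 24.2 on the FGF18 and PBS arrays. The second probe named Ereg was not lower. Its signal was 31.0 ± 6.87 with FGF18 and 24.6 ± 6.87 with PBS, the latter not distinct from background. By its signals it was at least 1.11-fold higher, but the log2 ratio of 0.15 was smaller than its scanner error of 0.51 and gives no direction. That probe (AK019057, chr5:92127088-92127147) lies 40.7 kb from the first and is listed on the opposite strand; over 18694 probes with a known gene strand the listed strand was right for 99.6%. With both probes averaged the log2 ratio of Ereg was -0.43.

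Btc had a signal of 294 ± 30.0 with FGF18 and 477 ± 48.1 with PBS (NM_007568, chr5:92433122-92433181, minus strand, 1 spot). Its log2 ratio was -0.88 ± 0.21, also below the central 95% of the probes of its class, the middle one (-0.66 to 0.77). The second Btc probe, 1.1 kb before it, was at the level of the negative controls (5.56 and 5.75), so the Btc value rests on 1 spot per array. Btc was below 0 in 13 of 13 other settings, between -0.88 and -0.56, spike-in scaling aside. Settings that choose among measured probes could not move it, as it had 1 measured probe.

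Areg encodes amphiregulin, a heparin-binding ligand through which keratinocytes stimulate themselves. Its single spot (NM_009704, chr5:92216264-92216323, plus strand) was at 78.7 ± 10.7 with FGF18 and 95.3 ± 12.2 with PBS. The unscaled signals differed by less than the sum of their errors, and the scaled log2 ratio was -0.46 ± 0.27, inside the central 95% of dim probes. Epgn (epigen, a low-affinity EGFR ligand of epithelia) was at 821 ± 82.3 and 778 ± 78.0, a log2 ratio of -0.10. Hbegf (heparin-binding EGF-like growth factor, released at wound edges) was at 378 ± 38.2 and 365 ± 37.0, a log2 ratio of -0.13. Both were brighter on the FGF18 array before scaling and just below 0 after it, by less than their errors of 0.20 and 0.21.

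Epgn, Ereg, Areg and Btc lie in this order on chromosome 5, and their probes span 324 kb in the files' coordinates. In the RefSeq table they are the 4 protein-coding genes among the 7 annotated genes from Epgn to Btc. Epgn was at -0.10 ± 0.20 (scanner error), Ereg at -1.02 ± 0.29, Areg at -0.46 ± 0.27 and Btc at -0.88 ± 0.21, all 4 below the median of all genes. Epgn and Btc differed by more than their errors. Ereg and Btc lay within each other's error, and Ereg with both its probes averaged was at -0.43, so not all of these neighbours can be told apart. The log2 ratios of Egf and Btc were 1.40 apart, against an error of 0.30 for that difference, and those of Egf and Ereg 1.54 apart against 0.36. These gaps between genes do not depend on a constant scaling factor, but other processing can narrow them. With another background correction Egf was at 0.44, Btc at -0.79 and Ereg at -0.55. Relative to the median of all genes, Egf was at 0.59, Tgfa at -0.41, Areg at -0.39, Ereg at -0.95 and Btc at -0.81. Each was more than its scanner error (1 SD), while the other 5 members were within theirs. The share of all genes past their own scanner error was not computed, so no excess among the members can be read from this. Egf, Tgfa and Areg lay inside the central 95% of the probes of their signal class.

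**Figure D3:**
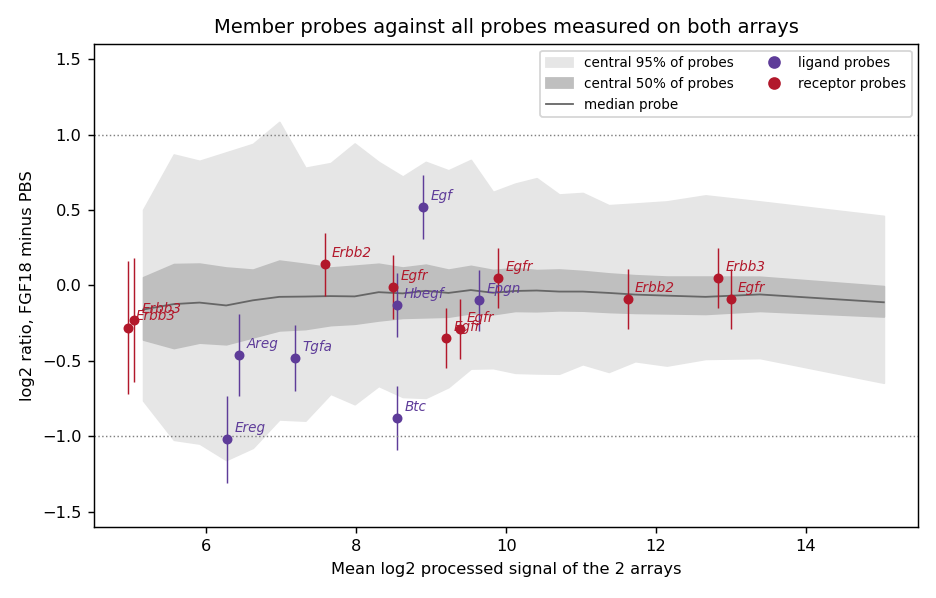
Scaled log2 ratio, FGF18 minus PBS, of the 17 member probes measured on both arrays against their mean log2 signal (ligands purple, receptors red, bars the scanner error), over the central 50% and 95% of all 24338 such probes (grey) with 2-fold lines dotted. Btc lies below the pale band, Ereg inside it near the lower edge and Egf inside it on the upper side; the receptor probes lie in or near the dark band.

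Among the receptors, Egfr had 6 probes, and the ratios of those listed for a transcript variant split by that variant. Variant 1 (NM_207655) encodes the full receptor, and variant 2 (NM_007912) ends earlier and encodes a shortened, secreted form. The 10-spot probe of variant 1 (chr11:16813815-16813874, plus strand) had a lowest signal of 7920, a median of 8485 and a highest of 8760 with FGF18, and 7610, 7845 and 8170 with PBS. The 10-spot probe of variant 2 (chr11:16787385-16787444, plus strand) had 614, 638 and 669 with FGF18, and 655, 682 and 743 with PBS. Before scaling, the FGF18 spot was the brighter in 10 of 10 pairs for variant 1 and in 0 of 10 for variant 2. The scaled log2 ratios of the spots ran from -0.13 to -0.04 for variant 1 and from -0.37 to -0.22 for variant 2, without overlap. The means, -0.09 and -0.29, differed by 0.20, or 1.15-fold, a gap of 0.19 to 0.22 under the other scalings and background correction. This gap was larger than the spread of single spots (0.0569 for the difference) but smaller than the scanner's error of 0.29 for it. The single-spot probes fell on the same sides, at -0.01 for variant 1 (383 and 339) and -0.35 for variant 2 (556 and 625). A probe 162 kb along the gene, of the cDNA AK033431, was at 0.05 (1030 and 876). The first probe along the gene (AK049452), from which that distance is counted, was not well above background. The 5 measured probes gave a mean of -0.14, which was 0.05 without scaling. The split by variant was described after the values were seen. Probes were assigned to variants by their listed transcript. Both variant 2 probes also lie before the other measured probes along the gene, so variant and position cannot be told apart.

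**Figure D4:**
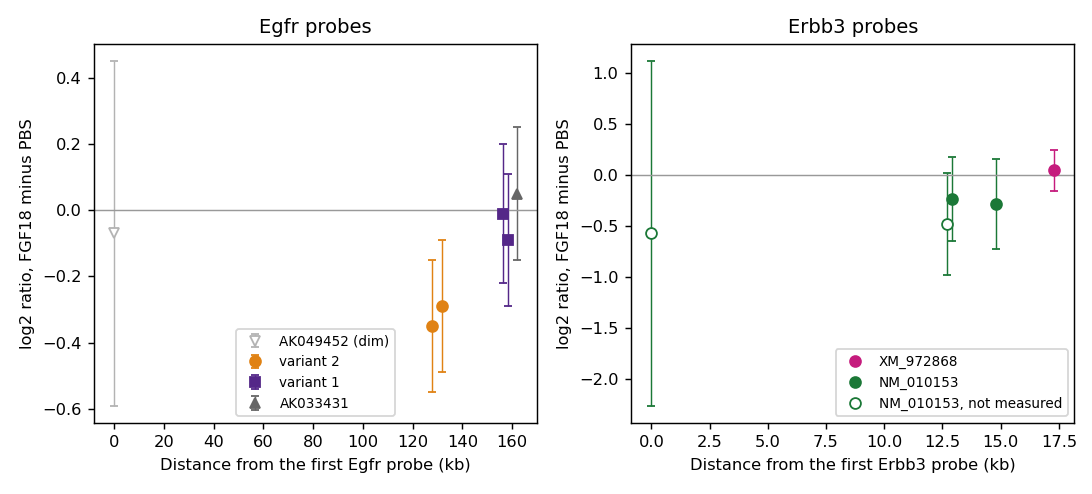
Scaled log2 ratio, FGF18 minus PBS, of each Egfr probe (left) and Erbb3 probe (right) against its distance in kb from the first probe of the gene, with the scanner error (1 SD); open symbols are probes not well above background. Both variant 2 probes of Egfr lie at -0.35 and -0.29, below the later probes at -0.09 to 0.05, and the Erbb3 probes have wide errors except the XM_972868 probe.

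Erbb2, the receptor that pairs with the others, was measured by 2 probes of NM_001003817 on chromosome 11. The 10-spot probe (chr11:98252879-98252938, plus strand) had a lowest signal of 3070, a median of 3250 and a highest of 3440 with FGF18, and 2910, 3060 and 3190 with PBS. Its log2 ratio was -0.09 with an SD of 0.0251 over spots and a scanner error of 0.20. The single-spot probe 2.3 kb before it was at 213 and 171, a log2 ratio of 0.14 ± 0.21. The probes thus stood on opposite sides of 0, and neither ratio exceeded its scanner error.

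Erbb3, the partner receptor for neuregulins, had 5 probes. The 4 probes of NM_010153 were dim on both arrays, with signals of 6.77 to 32.3 with FGF18 and 8.85 to 33.4 with PBS, and only 2 of them were well above background. Those 2 had log2 ratios of -0.28 ± 0.44 and -0.23 ± 0.41. The fifth probe (XM_972868, chr10:127970642-127970701, minus strand) was at 7890 ± 789 with FGF18 and 6710 ± 672 with PBS, a log2 ratio of 0.05. It lies 2.5 kb from the nearest other Erbb3 probe, on the side of the neighbouring gene Pa2g4, and its accession was not found in the RefSeq table. The nearest Pa2g4 probe is farther away, at chr10:127962436-127963044, and is listed on the minus strand too. Signals of different probes are not comparable with each other, and whether this probe measures Erbb3 was not tested. The mean of the 3 measured probes was -0.15, and -0.25 without the XM_972868 probe.

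The genes around the family were described with 5 lists of the pathway, 94 genes in all, of which 87 were measured on both arrays. Their median log2 ratio was -0.08 against -0.07 for all genes, with 1 gene past 2-fold on the higher side and 0 on the lower (all genes 1.54% and 0.987%). The ADAM proteases and helpers that release the ligands had a median of -0.07 over 10 genes. In that list Adam17, the main sheddase of TGF-alpha and amphiregulin, was highest at 0.37 (probes at 0.18 and 0.56), and Adam12 was lowest at -0.71 at dim signals of 35.2 and 50.6. Erbb4 was at -0.10 and its ligand Nrg4 at 0.35, and Nrg3 was not well above background on either array. For Nrg1, 1 of 5 probes, measured with PBS alone, was at least 2.08-fold lower with FGF18 (signals 12.8 and 42.7). This bound rests on dim signals of that probe and is not a value for the gene as a whole.

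Negative regulators of ErbB signalling had a median of -0.09 over 16 genes, between Dusp6, an ERK phosphatase, at -0.32 and Cbl, a ubiquitin ligase of EGFR, at 0.15. In this list Cblb was at least 1.73-fold lower (signals 13.8 with FGF18 and 35.5 with PBS) and Spry4 at least 1.28-fold higher (35.1 and 16.3). Each bound rests on 1 of 2 probes, dim and measured on 1 array. Adaptors and kinases downstream had a median of -0.08 over 39 genes, with Akt2, a kinase of the PI3 kinase pathway, highest at 0.42 and the transcription factor gene Stat3 lowest at -0.77 (probes at -1.05 and -0.49). Genes that EGFR induces in keratinocytes had a median of -0.16 over 20 genes, 12 of them below the median of all genes. Atf3, a stress-induced transcription factor, was 2.02-fold higher (1540 and 673) and Phlda1 lowest at -0.50. None of these 5 lists had a median as low as the -0.46 of the 7 ligands, which is a description with no test.

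**Figure D5:**
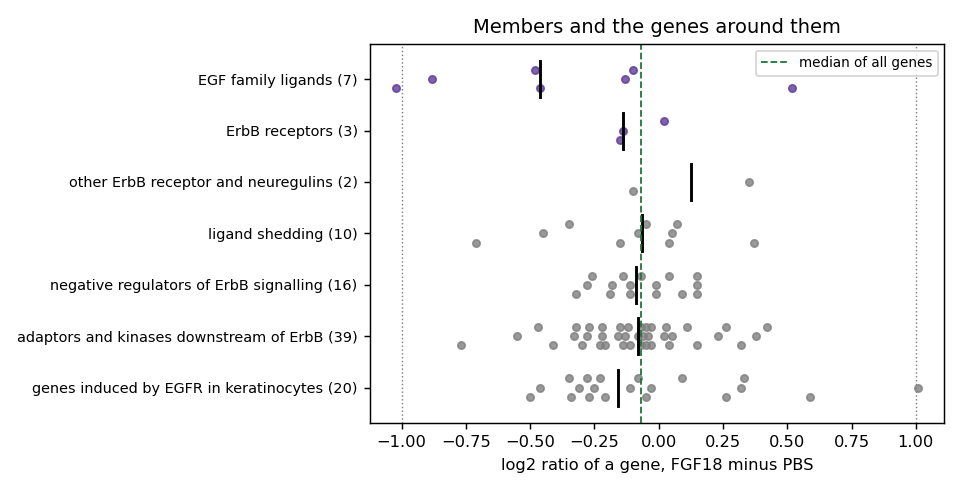
Scaled log2 ratio, FGF18 minus PBS, of each gene measured on both arrays (points) for the ligands and receptors (purple) and 5 lists of surrounding pathway genes (grey); the number of genes stands in parentheses, black bars are medians, the dashed line is the median of all genes and dotted lines mark 2-fold. The ligands spread from -1.02 to 0.52, and only Atf3 among the listed genes lies past a 2-fold line.

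Both arrays carried markers of skin, among them Krt5 of basal keratinocytes (192000 with FGF18, 177000 with PBS), with 62.4% and 61.5% of 43379 probe spots well above background and 0 saturated. Markers of differentiated keratinocytes, of dermal fibroblasts and some of the hair shaft were lower on the FGF18 array, as were Ereg, Btc, Tgfa and Areg. The suprabasal list had a median of -0.82 (7 of 7 below the median of all genes, from Flg at -1.14 to Krt1 at -0.38). Its summed signal before scaling was 443369 with FGF18 against 566720 with PBS. The sums of the next lists are unscaled too. The inner root sheath list had a median of -0.70 (7 of 7, from Krt26 at -1.21 to Krt28 at -0.40, 218671 against 303370). The hair matrix and shaft list had a median of -0.33, with 7 of 11 below the median of all genes (100263 against 94052). These unscaled sums give no direction, as the FGF18 array was the brighter (75th percentiles of 1020 and 899). Krt35 alone made up 72400 and 60900 of them. In this list 4 hair keratin genes were more than 2-fold lower, Krt34 at -2.44, Krt33b at -1.63, Krt33a at -1.32 and Krt31 at -1.05, whereas Krt35 was at 0.07.

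Basal keratinocyte markers had a median of -0.06 (Itga6 -0.22 to Col17a1 0.16), with 2 of 6 below the median of all genes. Those of the outer root sheath and bulge were at -0.25 (Lgr5 -0.87 to Lhx2 0.16), with 5 of 6 below it. Dermal fibroblast markers were at -0.35 (Col1a2 -0.75 to Dpt -0.11), with 7 of 7 below the median of all genes. Macrophage markers were at -0.29 (Mrc1 -0.70 to Itgam 0.99) and neutrophil markers at -0.27 (Cxcr2 -0.61 to S100a8 1.82). Endothelial markers were at 0.02 (Tek -0.12 to Kdr 0.58) and sebaceous gland markers at 0.09 (Awat2 -0.91 to Scd1 0.36). Skeletal muscle markers were at 0.21 (Tnnt3 -0.12 to Actn3 0.85) and melanocyte markers at 0.34 (Kit -0.06 to Tyr 0.69). The part of these cell types in the ligand ratios was not tested.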

How the data were processed

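Cy3-labelled cRNA was made from 200 ng RNA per the labels' protocols and hybridized to 2 arrays, 1 per group, grouped by source name. Per the file headers, the authors read the arrays with Agilent Feature Extraction 9.5.3.1 (protocol GE1-v5_95_Feb07, design 014868); the deposited intensity values are a background-subtracted, detrended processed signal with its error, the mean signal and the local background, and the other deposited columns, per the file headers, are flags and spot types. In the deposited value table each entry is a ratio of the processed signal to the array's median (83.8 and 80.0; column medians 1.00 and 0.999), within 0.0078 on the log2 scale; its direction and linear scale match the scanner files.

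Outlier-flagged spots (85 and 78, 0 of members) and controls were left out. Log2 processed signals were scaled to each array's 75th percentile, spots averaged, and the ratios of a gene's probes averaged over probes measured on both arrays. A bound sets the measured array against the higher of the other array's signal and its lowest signal well above background. Names were updated through RefSeq (GRCm38.p6, names only): 23374 probes by accession, 6733 by symbol, 2907 by synonym, 8160 kept, 41174 in all, of which 9 had their only spot flagged and were left out (41165 remain); this added 0 member probes. "Called" means past 2-fold; no test was made, as design text and labels give 1 array per group. Signal classes are 3 equal groups, by mean signal, of the 24338 probes measured on both arrays. The code was tested on simulated data. Named were all members, of each pathway list the highest and lowest gene, those past 2-fold and those of 1 array, and of marker lists the extremes; Krt5, Krt31, Krt33a, Krt33b and Pa2g4 were named outside this rule after their values were seen. Members, lists and alternatives were chosen with earlier results of these data known. Alternatives covered scaling, background correction (normexp, offset 50, limma 3.58.1), the value table, dim-probe filters, probe summaries and fold thresholds; spike-in scaling (7 E1A probes) and the choice of Egfr and Erbb3 probes were added after seeing the data. Intervals between mice cannot be given; the number of arrays limits precision.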

Additional observations from a re-analysis of the deposited data

How the results depend on the processing

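No paired analysis was possible because each group has 1 array. Scaling by a constant moves all genes together: the median of all genes, -0.07, moved by 0.10 with median scaling, 0.18 without scaling and 0.81 with spike-in scaling, and by -0.11 without a dim-probe filter, so values are best read relative to it. Spike-in scaling aside, Egf stayed above 0 and Tgfa, Areg, Ereg and Btc below 0 under every setting that gave them a value. Spike-in scaling put Tgfa and Areg above 0 and kept the signs of Egf, Ereg and Btc. A signal minimum of 100 left Areg and Ereg without a value. Filters and probe summaries could not move Egf or Areg, which have 1 probe each. The median of the members relative to all genes, -0.07, turned to 0.01 without a dim-probe filter.

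The count of 1 member at least 2-fold lower, Ereg, became 0 with median (-0.92), no (-0.84), quantile (-0.93) and loess (-0.91) scaling, the 75th percentile of probes well above background (-1.0), normexp (-0.55), probes of 1 array included or no filter (-0.43 each), a signal minimum, a 3-fold threshold (-1.02) and spike-in scaling (-0.22). At 1.5-fold the count was 2, with Btc at -0.88. Without a filter Btc was at -0.56 and Tgfa at -0.20, each averaged with a probe at background. Egfr was at -0.03 with median scaling, 0.05 without scaling, -0.05 from variant 1 and -0.32 from variant 2 probes. Erbb2 was at 0.20 without scaling. The median of the members (-0.14) was -0.04 with median scaling, 0.04 without scaling and 0.66 with spike-in scaling.

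Spike-in scaling, which adds the same amount to every gene, put Egf at 1.33 (1 member at least 2-fold higher), Tgfa at 0.32, Areg at 0.35, Btc at -0.07, Hbegf at 0.67, Epgn at 0.70, Egfr at 0.67, Erbb2 at 0.83 and Erbb3 at 0.65. Pathway genes at least 2-fold higher numbered 12 then, 0 with normexp, 2 at 1.5-fold and 0 at 3-fold against 1; those lower numbered 2 at 1.5-fold and 2 with probes of 1 array included, against 0. The labels do not state how spike-in was matched to RNA. Signals under about 100 (Areg, Ereg, most Erbb3 probes) limit what these genes can show.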
